A study of Mus musculus with 9 samples.

Results

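The hearts of tumour hosts given ACVR2B/Fc (A + T, animals LN5.20, LN5.21 and LN5.22) were compared with those of sham mice (S, animals LN5.2, LN5.3 and LN5.5), 6 of the 9 libraries of the series, chosen by their labels. All mice were male NSG mice, which lack mature lymphocytes and retain defective macrophages, and they were 8 weeks old at the start. Tumour hosts received HCT116 cells, a human colorectal cancer line, into the spleen, from which the cells seed the liver, and S mice had the same surgery with saline. A + T mice were also injected every week with ACVR2B/Fc, a soluble receptor joined to an antibody Fc part, and the labels place collection at 3 weeks. The other 3 libraries (animals LN5.11, LN5.12 and LN5.15) are labelled T, for tumour hosts without ACVR2B/Fc. They were used to ask which differences from S were also present without the label A + T and which were not. No library analysed here is labelled as ACVR2B/Fc with no tumour, so A + T vs. S holds the tumour and the agent together, and they cannot be told apart.

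ACVR2B is a cell surface receptor for activins, myostatin and related ligands of the transforming growth factor beta family, and its soluble form catches these ligands before they reach the cell. The heart takes most of its energy from fatty acids, whose oxidation genes are driven by the PPAR receptors. Heat shock proteins keep the proteins of the sarcomere and the cytosol folded, and their genes are driven by heat shock factors. Macrophages reside in the healthy heart and are joined by cells from blood monocytes.

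Some facts of the libraries precede the results. Fold changes from S in the T libraries matched those that the study's own gene list gives for sham mice treated with ACVR2B/Fc, and not those it gives for tumour hosts, so every statement on T below is one on the libraries labelled T. In the same libraries, where 21.2% of all genes tested differed from S, Stat3, Myh7 and 14 of 19 genes of atrophy and Foxo targets were higher. The comparison of A + T with S takes no level from them, but they enter the filter on low counts, the scaling and the common estimate of the spread. The second is lung tissue in LN5.22. The 8 listed markers of airway and lung summed to 1.82, 4.92 and 2.39 CPM (normalised counts scaled to library size) in S, to 5.38 in LN5.20, 4.45 in LN5.21 and 1689 in LN5.22. Scgb1a1, secreted by airway epithelium, had 17508 counts in LN5.22 and 0 in the other A + T libraries, and the surfactant gene Sftpb had 3230 against 9 and 4. The lung markers differed within T as well, with 196 CPM in LN5.12. Neutrophil markers summed to 246 CPM in LN5.22 against 20.7 and 20.6 in the other A + T libraries, and mesothelium markers to 202 against 39.8 and 69.3. In S the neutrophil sums were 4.15, 6.75 and 25.5 CPM and the mesothelium sums 102, 102 and 91.5. The numbers of genes called, and those called in a list where they moved, are therefore also given without LN5.22.

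**Figure D1:**
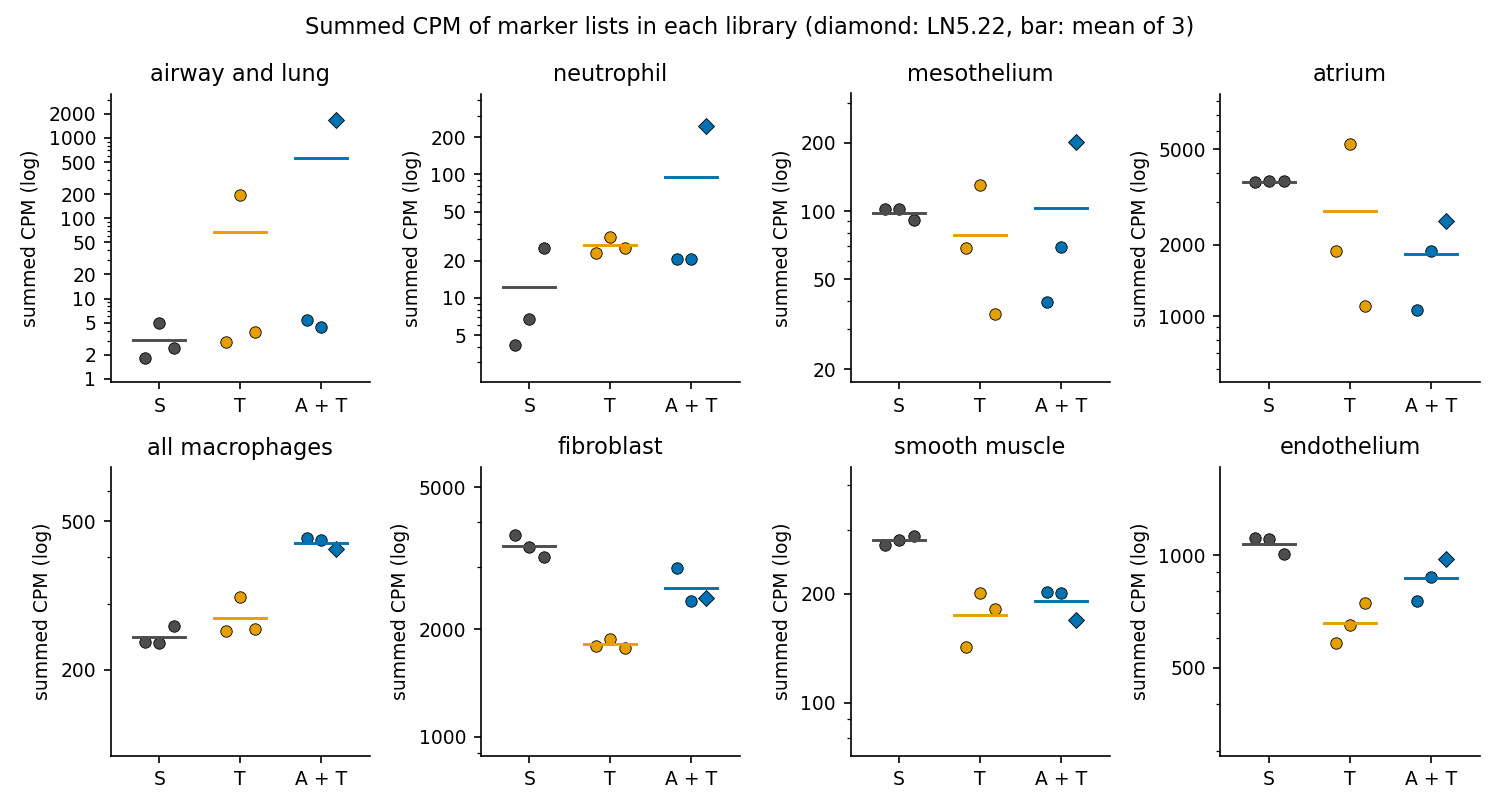
Summed normalised CPM of 8 marker lists (log axis) in each library of S, T and A + T. Circles are libraries, the diamond is LN5.22 and bars are means of 3. LN5.22 stands at 1689 CPM for airway and lung and at 246 for neutrophils, whereas for macrophages its 419.8 CPM is the lowest of A + T.

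All libraries carried the 6 listed ventricular markers. Myl2 measured 6760.3, 7090.3 and 6459 CPM in S and 6882, 7094 and 7140.3 in A + T. Myh6, the main adult myosin heavy chain of the mouse heart, measured 27284, 21367 and 22259 CPM in S and 21327, 23517 and 13202 in A + T. Irx4 was below S in every A + T library, at 31.2, 33.7 and 25.1 CPM against 45.1, 45.8 and 39.3. Of the 6 markers, 1 was called lower (16.7%, against 3.64% of all genes), and none without LN5.22. The share of atrial tissue was less even. The 12 atrial markers summed to 3642, 3672 and 3686 CPM in S and to 1061, 1883 and 2512 in A + T. The A + T libraries were all below S, the smallest result that an exact permutation test of 3 against 3 can reach (two-sided p = 0.1). Bmp10, a growth factor of the right atrium, had 1196, 3119 and 1270 counts in S but 4, 5 and 837 in A + T, and it was not called (adjusted p = 0.158). Without LN5.22 its log2 fold change was −8.42 (adjusted p = 0.000292). Bmp10 did not follow the other atrial markers in every library. In T it had 30, 19 and 19 counts, where the 12 markers summed to 1885, 5277 and 1103 CPM. The part of atrial tissue in the results below was not tested. Only Cd4 was listed of 11 lymphocyte markers, at 1.01 CPM or less in every library. The total counts ranged from 12392222 to 19732471, and the ribosomal RNA gene Rn45s took 4.57% to 19.6% of them. The p-values of single genes weigh a difference against the spread between these animals, estimated over all 9 libraries.

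Of 13364 genes tested, 1110 differed in A + T vs. S at an adjusted p under 0.05 (edgeR's quasi-likelihood test with Benjamini-Hochberg adjustment). This was 8.31% of the genes, with 624 higher (4.67%) and 486 lower (3.64%). The fold change reached 2 in 200 of the higher and 68 of the lower genes. At the study's thresholds, a fold change of 1.5 or more with an unadjusted p under 0.05, 1191 genes passed (8.91%), with 778 higher and 413 lower, and 1086 passed without LN5.22. The libraries of A + T and S did not overlap in 32.4% of the genes tested, called or not, and in 1108 of the 1110.

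Leaving LN5.22 out, 900 genes were called (6.73%), 510 higher and 390 lower. Of the 1110 genes, 726 remained called and all 1110 kept their sign. The count rested more on the S mice than on LN5.22. It was 269 without LN5.2, 300 without LN5.3 and 533 without LN5.5, and 693 without LN5.21. Without LN5.20 it was 939. For single genes, a call is said to hold throughout where it was kept in all 9 fits that left out 1 animal. Otherwise the animals whose absence ended it, or the number of these fits that kept it, are given.

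**Figure D2:**
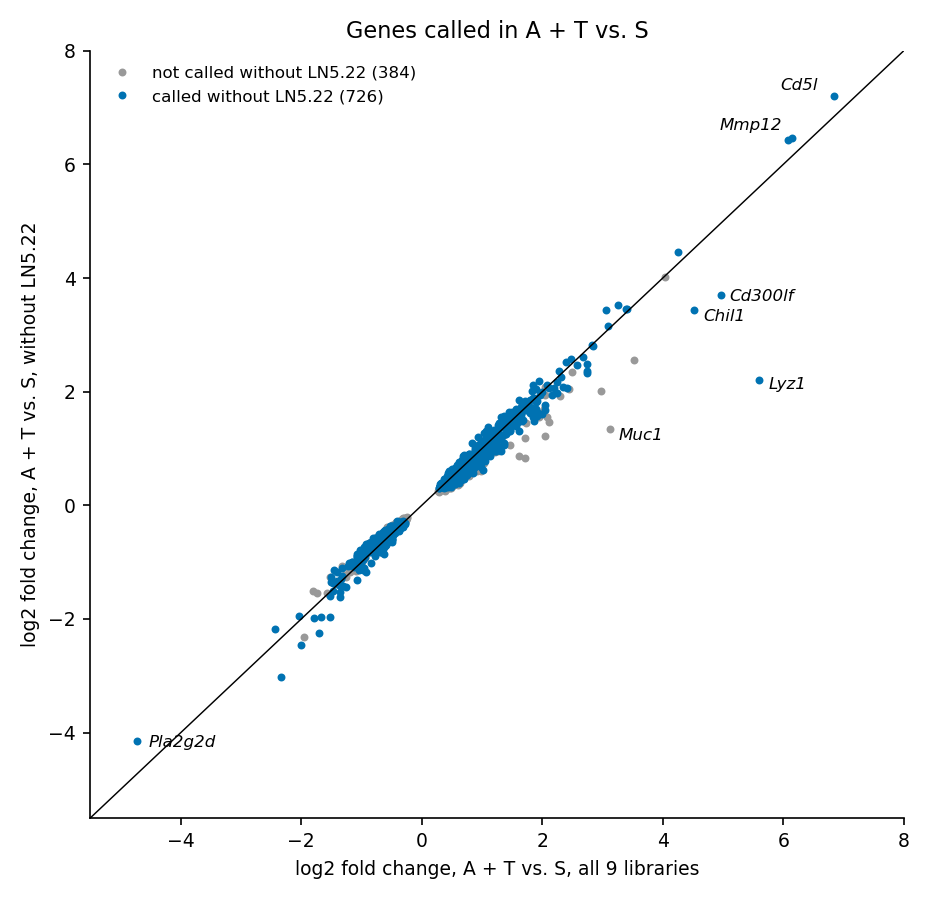
Log2 fold change of A + T over S with all 9 libraries (x axis) and without LN5.22 (y axis) for the 1110 called genes. Each point is a gene, blue where it was also called without LN5.22 (726) and grey where it was not (384). Lyz1, Muc1, Chil1 and Cd300lf lie below the diagonal, so their changes were smaller without that library.

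Called genes were sorted by what the libraries labelled T showed against the same S mice. In these, 21.2% of the genes tested differed from S after adjustment. Of the 1110 genes, 737 were also called in T vs. S with the same sign, 372 higher and 365 lower. Another 98 were called in A + T vs. S and in A + T vs. T (5.88% of all genes) but had an unadjusted p of at least 0.05 in T vs. S. These are called new here, and 82 of them were higher and 16 lower. Only 5 genes were called in both with opposite signs, and 270 could be placed in no class. Both comparisons use the same S libraries, so a high or low S value enters both, and the class counts are those fixed by the rule and not a test. Without LN5.22, 533 of the 737 shared genes and 64 of the 98 new genes stayed in their class. The shared genes numbered 187 without LN5.2, 217 without LN5.3, 365 without LN5.5 and 444 without LN5.21. The new genes numbered 35, 32 and 55 without LN5.2, LN5.3 and LN5.5, 47 without LN5.20 and 16 without LN5.11 of T.

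**Figure D3:**
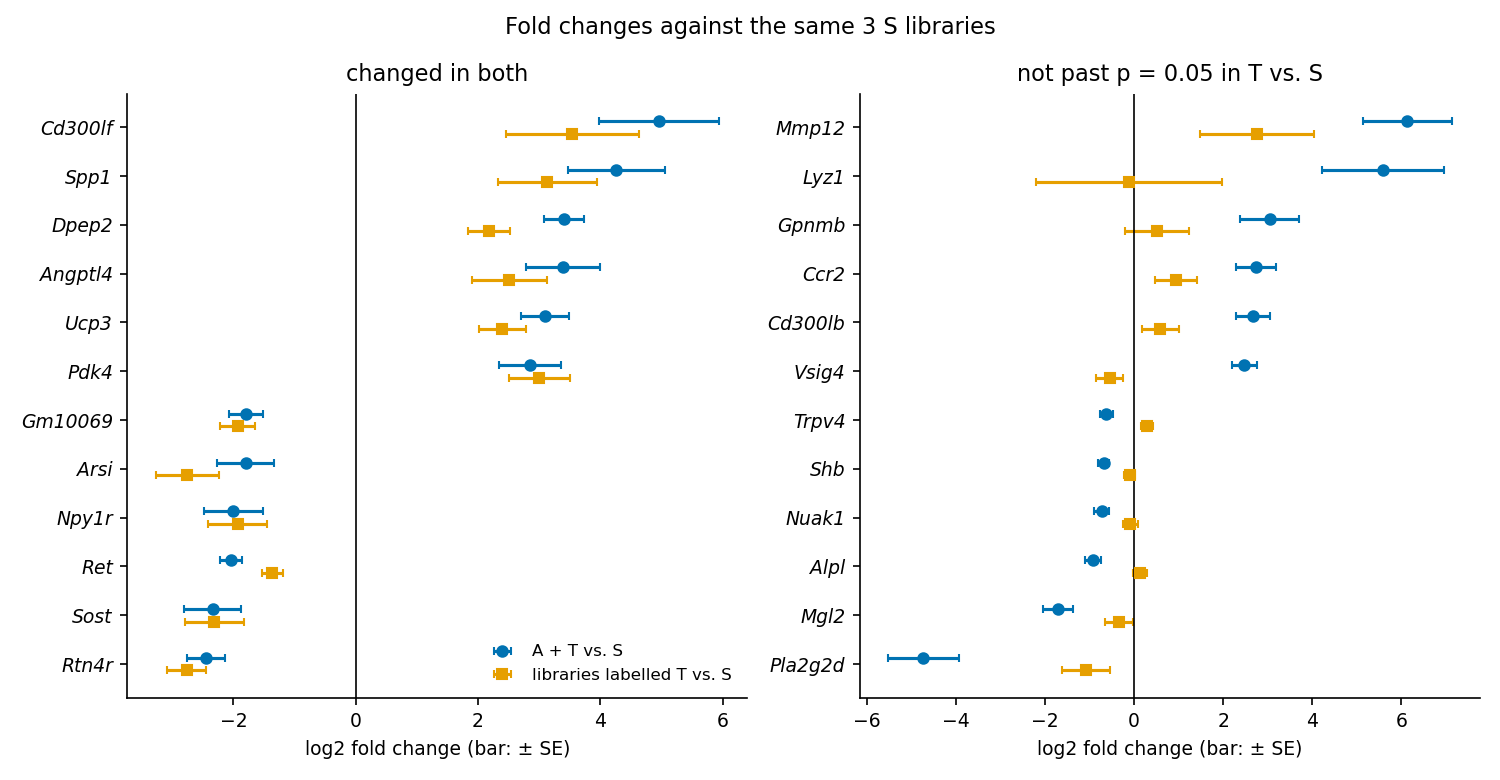
Log2 fold change with its standard error for the named genes called in both comparisons (left) and for those new in A + T vs. S (right). Circles are A + T vs. S and squares the libraries labelled T vs. S. Vsig4 stands at 2.48 in A + T and −0.55 in T, whereas Rtn4r stands at −2.44 and −2.76.

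Genes of fatty acid use were among those higher in both comparisons. Ucp3, a mitochondrial carrier induced by fatty acids (chromosome 7, 100472991 to 100486432, GRCm38), measured 8.35, 12.4 and 25.5 CPM in S, 115, 48.4 and 76.8 in T and 133, 136 and 119.6 in A + T. No A + T library came near the highest S library. Against S, the A + T level was higher by a log2 fold change of 3.09 (SE 0.39, adjusted p = 0.00286), and the call held throughout. Pdk4, the kinase that closes pyruvate dehydrogenase and so spares glucose, measured 126, 259 and 597 CPM in S and 2076, 2465 and 2556 in A + T. The log2 fold change was 2.85 (SE 0.50, adjusted p = 0.0102), and the call was lost without LN5.3. The S libraries spanned a wide range for this gene, and LN5.5 was the highest in S for Ucp3 and Angptl4 too. Angptl4, an inhibitor of lipoprotein lipase, rose from 1.82, 4.67 and 10.8 CPM to 62.8, 57.3 and 55, a log2 fold change of 3.39 (SE 0.61, adjusted p = 0.0109, lost without LN5.3). Cpt1a, which carries fatty acids into mitochondria as acyl-carnitine, was tighter. It measured 48.6, 49 and 56.8 CPM in S, 110.0, 94.1 and 111 in T, and 96.6, 105 and 105 in A + T, so the A + T libraries were level with T and spread little. The log2 fold change was 0.99 (SE 0.09, adjusted p = 0.00103), and the call held throughout.

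Of 34 tested genes of fatty acid oxidation and PPAR targets, 8 rose and 2 fell (29.4% called, against 8.31% of all genes), with a median log2 fold change of 0.15 against 0.00 over all genes. Besides those above, the rises included the peroxisomal enzyme Ehhadh (1.5, adjusted p = 0.00401), the transporter Slc27a1 (0.61, adjusted p = 0.00881) and the thioesterase Acot1 (1.62, adjusted p = 0.0153). Ehhadh and Slc27a1 held throughout, and Acot1 lost its call without LN5.2 or LN5.3. The genes that fell were the receptors themselves. Ppara measured 151, 132 and 134 CPM in S and 100.2, 104 and 76.2 in A + T, and Ppard 35.1, 32.4 and 32.2 against 25.2, 25.3 and 20.5. Both calls were lost without LN5.2, LN5.3 or LN5.5. Without LN5.22, 7 of the list rose and 2 fell, and without LN5.3 4 rose and none fell. In glucose uptake and glycolysis, 1 of 28 genes was called, and 0 without LN5.22. Slc2a4, the insulin-responsive glucose transporter, measured 464, 456 and 458 CPM in S and 433, 430.4 and 348 in A + T (adjusted p = 0.229).

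**Figure D4:**
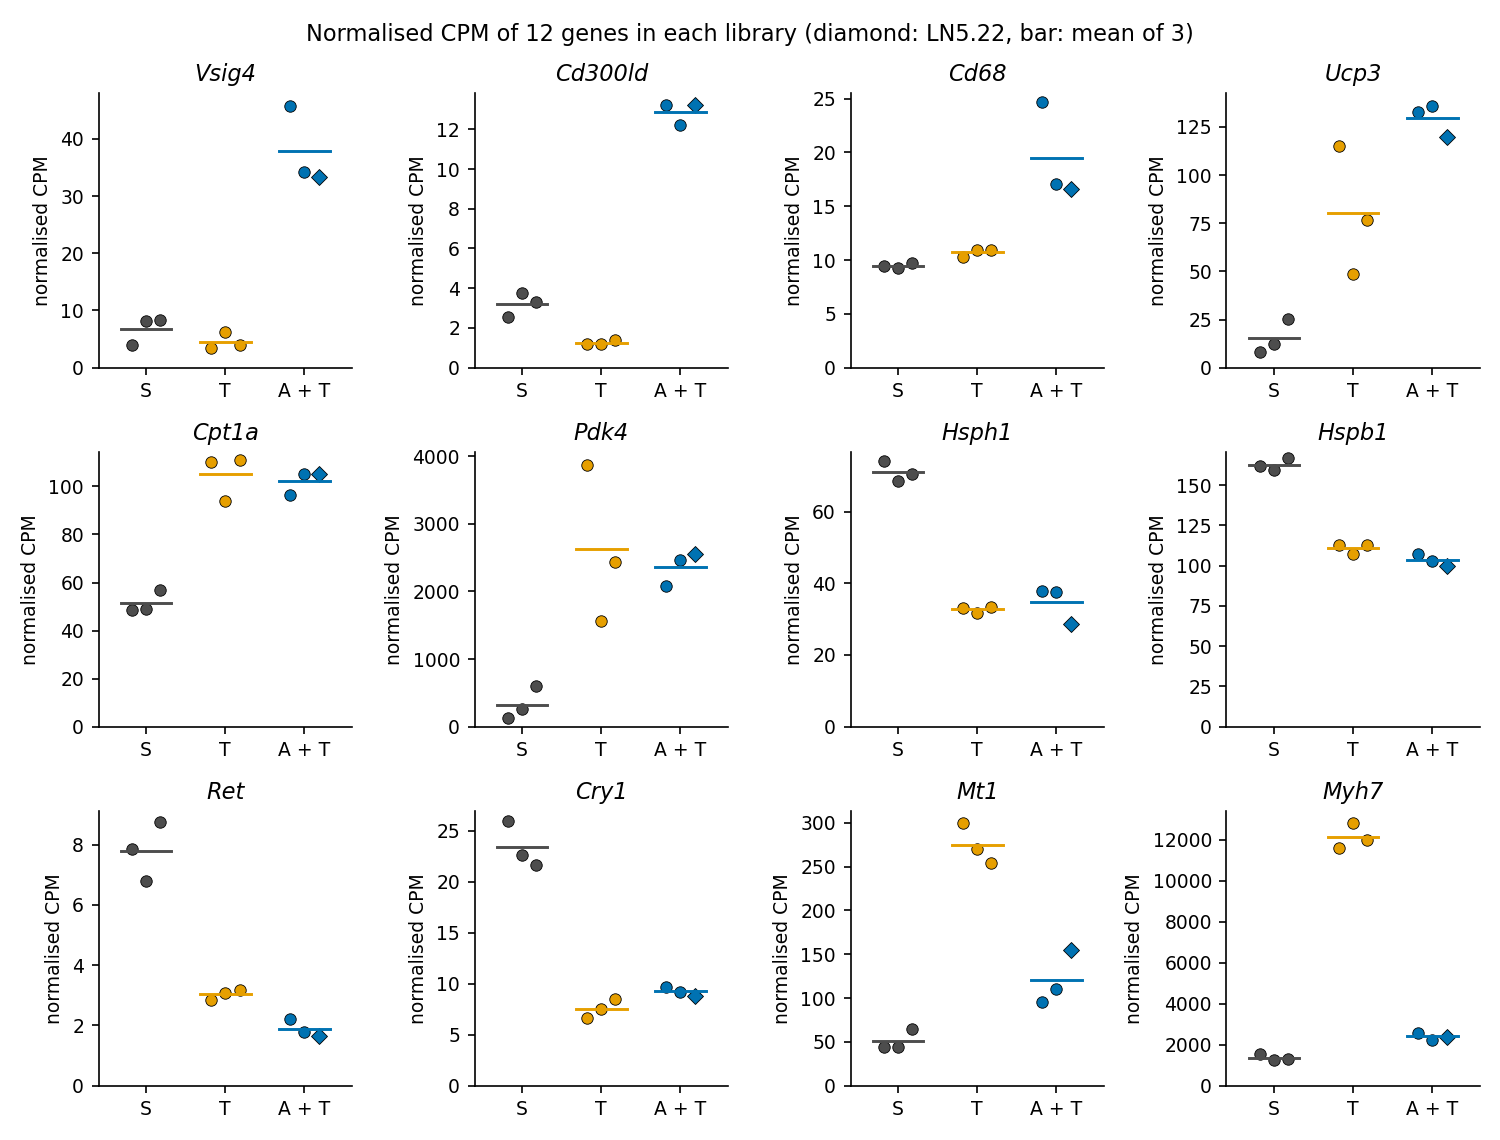
Normalised CPM of 12 genes in each library of S, T and A + T. Circles are libraries, the diamond is LN5.22 and bars are means of 3. Vsig4, Cd300ld and Cd68 are higher in A + T than in every S and T library. Ucp3, Cpt1a and Pdk4 are higher, and Hsph1, Hspb1, Ret and Cry1 lower, in both A + T and T than in S, and Mt1 and Myh7 are highest in T.

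Heat shock protein genes were lower. Of 21 tested, 9 fell and none rose, and the median log2 fold change was −0.38. The 9 make 42.9% of the list against 3.64% of all genes called lower. For 3 of the fallen genes the 250 bases before the start are shown, because they hold a pair of facing heat shock units. They are taken from RefSeq (GRCm38.p6), 5′ to 3′ on the strand of the gene, and the capitals mark each pair. They lie at chr17:34959239-34959488 on the minus strand for Hspa1b, at chr4:40722218-40722467 on the plus strand for Dnaja1 and at chr5:135887669-135887918 on the plus strand for Hspb1.
Hspa1b: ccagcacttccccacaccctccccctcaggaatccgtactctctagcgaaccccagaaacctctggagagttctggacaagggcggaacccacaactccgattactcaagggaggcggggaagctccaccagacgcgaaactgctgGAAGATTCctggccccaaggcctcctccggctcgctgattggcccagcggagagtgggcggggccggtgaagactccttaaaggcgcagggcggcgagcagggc
Dnaja1: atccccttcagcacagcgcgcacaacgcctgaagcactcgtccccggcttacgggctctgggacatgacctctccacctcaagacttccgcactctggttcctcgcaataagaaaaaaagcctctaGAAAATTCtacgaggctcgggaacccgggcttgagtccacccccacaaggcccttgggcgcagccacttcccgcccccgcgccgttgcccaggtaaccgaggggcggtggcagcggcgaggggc
Hspb1: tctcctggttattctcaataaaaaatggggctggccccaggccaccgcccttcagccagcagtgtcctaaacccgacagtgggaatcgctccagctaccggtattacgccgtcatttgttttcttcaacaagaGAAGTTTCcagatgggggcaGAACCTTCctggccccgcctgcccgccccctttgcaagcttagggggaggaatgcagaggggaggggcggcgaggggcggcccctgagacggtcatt
The pair was searched as GAANNTTC or TTCNNGAA, forms that read the same on both strands. It began 104 bases before the start of Hspa1b, 124 before that of Dnaja1 and 117 and 97 before that of Hspb1. The table holds other starts of Dnaja1 with no pair before them. Hspd1 and Hspe1, which did not fall, have promoters that overlap on opposite strands and share the same 3 overlapping pairs. Of the fallen genes, 6 had a promoter in the table and 4 of these held a pair, the fourth being Hsph1, and Chordc1 and Hspb8 held none in this window. Promoters were available for 16 of the 21 genes of the list. Of these 23 promoters 10 held a pair (43.5%), and 12.8% of all 32851 promoters did. Both shares count starts and not separate sites. Overlapping promoters, as of the starts of Hsph1 or of Hspd1 and Hspe1, count the same pair more than once. A match describes the letters only.

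Hsph1, a nucleotide exchange factor for Hsp70, measured 74.2, 68.6 and 70.5 CPM in S, 33.1, 31.6 and 33.4 in T and 37.9, 37.6 and 28.7 in A + T. All A + T and T libraries lay well below the lowest S library. The log2 fold change was −1.03 (SE 0.10, adjusted p = 0.00136). Hspb1, a small chaperone that binds actin, fell from 162, 159.5 and 167 CPM to 107, 103 and 99.8, a log2 fold change of −0.66 (SE 0.07, adjusted p = 0.00136). Dnaja1, a partner of Hsp70, fell from 48.9, 48.7 and 53.1 CPM to 28.9, 27.7 and 36, and the cytosolic Hsp90aa1 from 241, 226 and 234 to 152, 155 and 177. The calls of these 4 genes held throughout. Hspa1b, an inducible Hsp70, was low, with 3.54, 2.08 and 2.75 CPM in S and 0.557, 0.861 and 1.17 in A + T (log2 fold change −1.68, adjusted p = 0.0136, lost without LN5.2). It has a near-identical neighbour, Hspa1a, so uniquely mapped counts of the pair are uncertain, and Hspa1a was at 2.6, 0.812 and 3.4 against 0.742, 0.646 and 0.924 CPM (adjusted p = 0.0786). Hspa8 and Chordc1 also fell, with log2 fold changes of −0.47 and −0.56, and lost their call without LN5.3. Hsp90ab1 (−0.38) and Hspb8 (−0.36) were called in only 2 of these 9 fits. Of the 9 genes, 8 were also called in T vs. S. Without LN5.22, 7 of the list were called, and without LN5.2 or LN5.3 the count was 6. The mitochondrial chaperones Hspd1 and Hspe1 did not pass the test, with log2 fold changes of −0.06 and 0.01. Among 20 chaperones of the endoplasmic reticulum only Hyou1 was called (−0.69, kept in 4 of the 9 fits), with 2 calls without LN5.22, and Hspa5, their main Hsp70, was at −0.39 (adjusted p = 0.132).

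Regulators of the clock, of zinc and of wasting formed a further group shared with T. Cry1, a repressor of the circadian clock, measured 25.9, 22.6 and 21.6 CPM in S, 6.63, 7.49 and 8.51 in T and 9.71, 9.19 and 8.81 in A + T. Its log2 fold change was −1.34 (SE 0.12, adjusted p = 0.000836), and the call held throughout. The clock genes Nr1d1 (0.66), Nr1d2 (0.79) and Dbp (1.72) rose, losing their call without LN5.2, without LN5.2 or LN5.3, and, for Dbp, without LN5.11, LN5.21, LN5.22 or any S animal, while Clock (−0.16) and Arntl (−0.50) did not pass the test. In all, 3 of 19 clock genes rose and 1 fell (21.1%, against 8.31% of all genes called). Without LN5.2 or LN5.3 the clock list had 0 and 1 higher. Without LN5.22 it had 2 higher and 1 lower. The metal-binding protein gene Mt1 measured 44.6, 44.1 and 64.1 CPM in S, 300.0, 269.8 and 254 in T and 95.7, 110.5 and 155 in A + T. It was above S in A + T (log2 fold change 1.25, adjusted p = 0.00626, held throughout) and below T (−1.19, adjusted p = 0.00838). Mt2 followed the same order. Its levels were 10.6, 10.3 and 25.8 CPM in S and 42.7, 46.1 and 76.8 in A + T (log2 fold change 1.85, adjusted p = 0.0124). The zinc exporter Slc30a1 and the importer Slc39a1 rose by 0.44 and 0.42 on the log2 scale, and the importer Slc39a10 fell by 0.72. These 3 and Mt2 lost their call without LN5.2 or LN5.3, and Slc39a10 also without LN5.21, so that of 11 genes of this list, 4 higher and 1 lower, Mt1 alone was called without LN5.2 or LN5.3. Of the 11 genes, 45.5% were called, against 8.31% of all genes, and without LN5.22 the count was the same 4 and 1.

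Of 19 genes of atrophy and targets of Foxo factors, 5 rose and none fell (26.3%, against 4.67% of all genes called higher), and 4 rose without LN5.22. Txnip, which restrains glucose uptake, rose from 287, 450.4 and 529 CPM to 1530.2, 1347 and 1245 (log2 fold change 1.70, adjusted p = 0.00215, held throughout), close to its level in T. Trim63, the muscle ubiquitin ligase also known as Murf-1, was at 172, 192 and 214 CPM in S and 245, 272 and 238 in A + T (0.39, adjusted p = 0.0414). Its call was lost without LN5.2, LN5.3, LN5.11, LN5.20 or LN5.21. The mitophagy receptor Bnip3 rose by 0.54, Gabarapl1 by 0.66 and the translation repressor Eif4ebp1 by 0.53 on the log2 scale. Bnip3 lost its call without LN5.2 or LN5.3, and the others without LN5.21, LN5.22 or any S animal. The second muscle ligase, Fbxo32, was at 0.34 (adjusted p = 0.158). Without LN5.2 or LN5.3 only Txnip remained called in this list, without LN5.5 or LN5.21 3 genes were called, and 2 were called when libraries were scaled by their totals alone. In the list of glucocorticoid-responsive genes, 4 of 18 rose, Pdk4, Angptl4, Glul and Zbtb16, and without LN5.3 or LN5.21 1 and 3 were higher. Zbtb16 lost its call without LN5.3, LN5.5 or LN5.21, and without LN5.22 4 of the list rose and none fell. The receptor gene Nr3c1 was the 1 that fell (−0.25, adjusted p = 0.0489), and its call was kept in none of the 9 fits without an animal. The called genes make 27.8% of this list, against 8.31% of all genes. Glul, glutamine synthetase, rose from 282, 294 and 367 CPM to 512, 620.5 and 582 (0.86, adjusted p = 0.00408, held throughout). Fkbp5 did not follow them in A + T. Its levels were 33.3, 18 and 21.1 CPM in S, 68.9, 92.8 and 56 in T and 22, 25.1 and 26.1 in A + T, with a log2 fold change from S of 0.01 (adjusted p = 0.978).

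In the interleukin-6 and Stat3 pathway, 3 of 15 genes rose (20%, against 4.67% of all genes called higher), and 2 without LN5.22. Stat3, the transcription factor of this pathway, measured 167, 164 and 188 CPM in S, 372, 324 and 379 in T and 270.2, 284 and 237 in A + T. It was above S (log2 fold change 0.61, adjusted p = 0.00811, held throughout) and below T (−0.44, adjusted p = 0.031). Socs3, its feedback inhibitor, rose by 1.21 and the oncostatin receptor Osmr by 0.49 on the log2 scale, and both lost their call without LN5.2, LN5.3 or LN5.5, and Socs3 also without LN5.21 or LN5.22. Of 13 acute-phase genes, C4b (1.47) and Itih4 (1.36) rose (15.4% of the list), both losing their call without LN5.2 or LN5.3. Lcn2 and Serpina3n did not pass the test (adjusted p = 0.132 and 0.0778). Myc, a growth-promoting transcription factor, rose from 3.7, 3.96 and 3.47 CPM to 8.97, 12.3 and 8.81 (1.43, adjusted p = 0.00244, held throughout). The other 20 immediate early genes did not pass the test, and Fos was at 0.88 (adjusted p = 0.444). In the interferon-stimulated list, 4 of 29 genes rose (13.8%, against the same 4.67%), Mx1, Oas3, Irf7 and Stat2. The count was 9 without LN5.20, 3 without LN5.22, 1 without LN5.2 or LN5.3, and 2 without LN5.5 or LN5.21. Oas3, Irf7 and Stat2 kept their call in 6, 5 and 5 of the 9 fits. Mx1, an antiviral protein, was low, at 0.498, 0.457 and 0.217 CPM in S and 1.24, 1.94 and 2.28 in A + T (2.16, adjusted p = 0.00923, held throughout), and Ifit1 was high in LN5.22 alone, at 27 CPM against 7.98 and 10.3.

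Of 22 sarcomere genes, 3 rose and none fell (13.6%, against 4.67% of all genes called higher). The list did not move as a whole, with 9 positive and 13 negative signs and a median log2 fold change of −0.04. Myh7, the beta myosin heavy chain of the fetal heart (chromosome 14, 54970684 to 54994626), measured 1536, 1255 and 1292 CPM in S, 11605, 12803 and 11981 in T and 2584, 2252 and 2397 in A + T. A + T stood above S (log2 fold change 0.83, SE 0.11, adjusted p = 0.00353) but far below T (−2.33, SE 0.11, adjusted p = 1.19e-05). Tcap, which anchors titin at the Z-disc, rose from 367, 391 and 356 CPM to 649, 724 and 889 (1.02, adjusted p = 0.00814). Both calls held throughout. Mybpc2 was the third riser of 22 sarcomere genes (0.58, adjusted p = 0.0249) and lost its call without LN5.20, LN5.21 or any S animal. Without LN5.22, 3 of the list rose and 2 fell. The natriuretic peptide Nppb fell from 304, 305 and 196 CPM to 127, 181 and 135 (−0.87, adjusted p = 0.0371), and Nppa, which is mainly atrial, was at −1.02 (adjusted p = 0.166). Nppb lost its call without LN5.2, LN5.3, LN5.20 or LN5.22. The atrial markers above moved with both, and their part was not tested. None of 16 calcium handling genes was called. Atp2a2, the calcium pump, was at −0.21 (adjusted p = 0.358).

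The largest falls shared with T were in genes of low level. Ret, the receptor of glial cell line-derived factors (chromosome 6, 118151748 to 118197744), measured 7.85, 6.8 and 8.75 CPM in S, 2.85, 3.09 and 3.18 in T and 2.23, 1.79 and 1.66 in A + T. Every A + T library lay below every S and T library, and the log2 fold change was −2.03 (SE 0.18, adjusted p = 0.000836). Rtn4r, a receptor of myelin inhibitors of axon growth, fell from 8.79, 7.36 and 6.94 CPM to 1.48, 1.94 and 0.863 (−2.44, SE 0.31, adjusted p = 0.00289). Gm10069 fell from 3.43, 2.64 and 2.68 CPM to 0.742, 0.718 and 1.05 (−1.79, adjusted p = 0.00726). These 3 calls held throughout. The Wnt inhibitor Sost (−2.34, adjusted p = 0.0168), the neuropeptide Y receptor Npy1r (−2.0, adjusted p = 0.0309) and the sulfatase Arsi (−1.80, adjusted p = 0.0403) lost theirs without 2 to 5 animals, LN5.2 and LN5.5 among them for each. Adamts8 (−1.95), Elfn2 (−1.74) and S100b (−1.57) were called in A + T vs. S but not in T vs. S. Their call was lost without LN5.22 and without each S animal, and that of Adamts8 also without LN5.20 or LN5.21.

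Of 14 tested genes that macrophages in general express, 11 rose and none fell (78.6% of the list, against 4.67% of all genes called higher), with a median log2 fold change of 0.86. Their summed level was 237, 236 and 262 CPM in S, 254, 314 and 257 in T, and 450.2, 444 and 419.8 in A + T. The A + T libraries all lay above S and T (exact permutation test against S, two-sided p = 0.1, the smallest possible). In these bulk samples, more macrophages and more RNA per macrophage cannot be told apart. LN5.22 was the lowest of the A + T libraries, and without it 10 of the 14 rose and the median was 0.92. The count was 7 without LN5.2, 8 without LN5.3 and 7 to 12 over all 9 fits. By the rule, 8 of the 14 were among the 98 new genes and 2 were shared with T.

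Cd68, a lysosomal protein of macrophages, measured 9.4, 9.29 and 9.76 CPM in S, 10.3, 10.9 and 10.9 in T and 24.7, 17.1 and 16.6 in A + T. The log2 fold change was 1.04 (SE 0.15, adjusted p = 0.00469). Csf1r, the receptor for their growth factor, rose from 44.7, 36 and 43.3 CPM to 85, 68.5 and 58.9 (0.78, adjusted p = 0.00859). The complement genes C1qa, C1qb and C1qc rose by 0.56, 0.69 and 0.67 on the log2 scale, and the signalling adaptor Tyrobp by 1.24. The calls of these 6 genes and of Laptm5 (1.02) held throughout. Adgre1, the F4/80 antigen, was at 30.4 and 29.6 CPM in LN5.20 and LN5.21 but 16 in LN5.22, against 13.2, 13.8 and 15.7 in S (0.83, adjusted p = 0.0468), and was called in 2 of the 9 fits without an animal. The members that did not pass were Aif1, Itgam and Mertk (log2 fold changes 0.57, 2.20 and 0.51). C1qa lost its call when libraries were scaled by their totals alone.

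Vsig4, a complement receptor of resident macrophages (chromosome X, 96247201 to 96293438), was a new gene of the resident list. It measured 3.93, 8.12 and 8.32 CPM in S, 3.47, 6.3 and 3.93 in T and 45.8, 34.2 and 33.4 in A + T. The log2 fold change was 2.48 (SE 0.28, adjusted p = 0.0019), and 3.03 against T (adjusted p = 0.00248). Other markers of resident macrophages did not all follow. Cd163 rose (0.89, adjusted p = 0.0118, lost without LN5.3), and Timd4 was at 1.03 (adjusted p = 0.0536). Lyve1 and Cbr2 were high in LN5.22 alone, with 94 against 22.1 and 25.8 CPM and 169 against 13.4 and 12.9. Of the 10 resident markers, 6 had a positive and 4 a negative sign. Mrc1 measured 50.3, 47.7 and 47.6 CPM in S and 51.1, 31.5 and 31 in A + T. F13a1 measured 61.1, 57.4 and 76.8 CPM in S and 64.3, 45.7 and 41.3 in A + T. In all, 2 of 10 resident markers rose (20%, against 4.67% of all genes called higher), and 3 without LN5.22. Without LN5.20, 2 were called higher and 2 lower. The median of the list was 0.46 with LN5.22 and −0.17 without it.

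Of 13 tested monocyte and dendritic cell markers, Ccr2 and Mmp12 rose and Mgl2 and Clec10a fell (30.8%, against 8.31% of all genes called). The 16 listed markers summed to 176, 136 and 173 CPM in S and 171, 366 and 294 in A + T, which overlap (exact permutation test, two-sided p = 0.3). Ccr2, the chemokine receptor of recruited monocytes, rose from 0.719, 1.27 and 1.23 CPM to 7.67, 3.02 and 10.7 (log2 fold change 2.74, SE 0.44, adjusted p = 0.00726). The T libraries lay at 1.8, 2.62 and 1.68. Cd300lb, an activating receptor of myeloid cells, rose from 0.276, 0.863 and 1.01 CPM to 5.26, 3.37 and 5.05 (2.68, adjusted p = 0.0041). Mmp12, the macrophage elastase, had 1, 3 and 0 counts in S and 206, 28 and 50 in A + T. Pooled by group and scaled by library size, the ratio was 79.1 (exact 95% interval 30.6 to 292, counting error only). The calls of these 3 genes, and of Vsig4, held throughout. Gpnmb, a membrane protein of lipid-laden macrophages, was at 41.1 CPM in LN5.20 and 6.96 and 7.33 in the others, against 1.83 to 2.88 in S (3.05, adjusted p = 0.0221, lost without LN5.2, LN5.3 or LN5.5).

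Not all myeloid genes rose. Pla2g2d, a phospholipase of resident myeloid cells (chromosome 4, 138775735 to 138782052), had the largest fall of the named genes. It had 45, 60 and 26 counts in S and 4, 0 and 0 in A + T, a pooled ratio of 0.034 (exact 95% interval 0.00913 to 0.0892). Mgl2, a lectin of dendritic cells and some macrophages, fell from 6.52, 7.82 and 8.68 CPM to 1.42, 1.79 and 3.76 (−1.71, adjusted p = 0.0149, lost without LN5.3). Clec10a, a related lectin, was one of 5 genes with opposite signs, and was named after its values were seen, as were the others. It measured 1.99, 2.33 and 1.59 CPM in S, 4.83, 4.7 and 2.9 in T and 1.05, 0.861 and 0.986 in A + T (−1.03, adjusted p = 0.0499), and kept the call in 1 of the 9 fits. In Cd300ld the opposite held. It measured 2.54, 3.76 and 3.33 CPM in S, 1.18, 1.19 and 1.4 in T and 13.2, 12.2 and 13.2 in A + T. The 3 groups were fully apart, with a log2 fold change of 2.00 from S (SE 0.17, adjusted p = 0.000793, held throughout) and 3.37 from T (adjusted p = 2.3e-05). The other 3 were Dock10, which was higher in A + T (0.81), and Gfod1 and Ccrn4l, which were lower (−0.48 and −0.70). Each of these 3 was called in 5 of the 9 fits.

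The new falls outside the myeloid genes were small. Alpl, tissue-nonspecific alkaline phosphatase, measured 60.1, 57.8 and 57.1 CPM in S, 63, 51.5 and 78.7 in T and 34.8, 34 and 23.7 in A + T (−0.92, SE 0.17, adjusted p = 0.0114, lost without LN5.2). Shb, an adaptor of receptor kinases, fell from 34.6, 32.7 and 39.1 CPM to 22, 21 and 23.4 (−0.68, adjusted p = 0.0109, held throughout). The kinase Nuak1 and the calcium channel Trpv4 fell by 0.73 and 0.62 on the log2 scale, and lost their call without 3 and 5 animals.

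Several of the largest rises rested on 1 or 2 libraries. Cd5l, a secreted macrophage protein, had 2, 2 and 6 counts in S and 24, 819 and 175 in A + T, and Arg1, arginase 1, had 4, 1 and 5 against 21, 473 and 106. LN5.21 held most of both. Their pooled ratios were 113 (exact 95% interval 61.4 to 237) and 66.8 (36.1 to 140.1), counting error only, and both calls were lost without LN5.21 and without each S animal. Spp1, osteopontin, was more even, with 0.221, 0.558 and 0.723 CPM in S and 8.04, 13.8 and 6.84 in A + T (4.26, SE 0.79, adjusted p = 0.0121, lost without LN5.2 or LN5.3). Dpep2, a leukotriene dipeptidase, was the steadiest of them, at 0.608, 0.406 and 0.289 CPM in S, 1.73, 2.79 and 1.5 in T and 5.32, 4.52 and 4.5 in A + T (3.41, SE 0.33, adjusted p = 0.00103, held throughout).

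The genes that leaned most on LN5.22 were Lyz1, Chil1, Muc1, Cd300lf, Slfn4 and Fgr. Lyz1, a lysozyme of lung and gut, had 90.6% of its counts over the 9 libraries there, at 64.2 CPM against 2.1 and 2.23 in the other A + T libraries and 0.387 to 0.508 in S. Its log2 fold change was 5.60 (adjusted p = 0.0343) and 2.20 without LN5.22 (adjusted p = 0.00909), so a smaller rise was also present in the other 2 libraries. Muc1, a mucin of epithelia, was at 10.7 CPM in LN5.22 and 1.36 and 1.22 in the others against 0.442 to 0.558 in S. Without LN5.22 its log2 fold change went from 3.12 to 1.35 (adjusted p = 0.0611). Chil1 went from 4.52 to 3.44 and was at 1.42, 10.8 and 26.2 CPM in A + T. It just kept its call without LN5.22 (adjusted p = 0.05 after rounding) but lost it without any S animal. Slfn4, a myeloid gene, went from 3.53 to 2.55 (adjusted p = 0.0782) and the Src-family kinase Fgr from 2.97 to 2.01 (adjusted p = 0.0536). Cd300lf, an inhibitory myeloid receptor, had 2, 1 and 1 counts in S and 16, 17 and 92 in A + T, and stayed called without LN5.22 (adjusted p = 0.0187) but not without any S animal. Lyz1 lost its call without LN5.11 or any S animal. Of the genes tested, 32 had over 50% of their counts in LN5.22, and 4 of these were called, whereas the number was 0 for each S library and 2 and 3 for LN5.20 and LN5.21. The neutrophil genes S100a8 and S100a9 were at 46.3 and 113 CPM in LN5.22 and at most 5.28 and 8.03 in S, and neither was called (adjusted p = 0.1 and 0.0632).

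**Figure D5:**
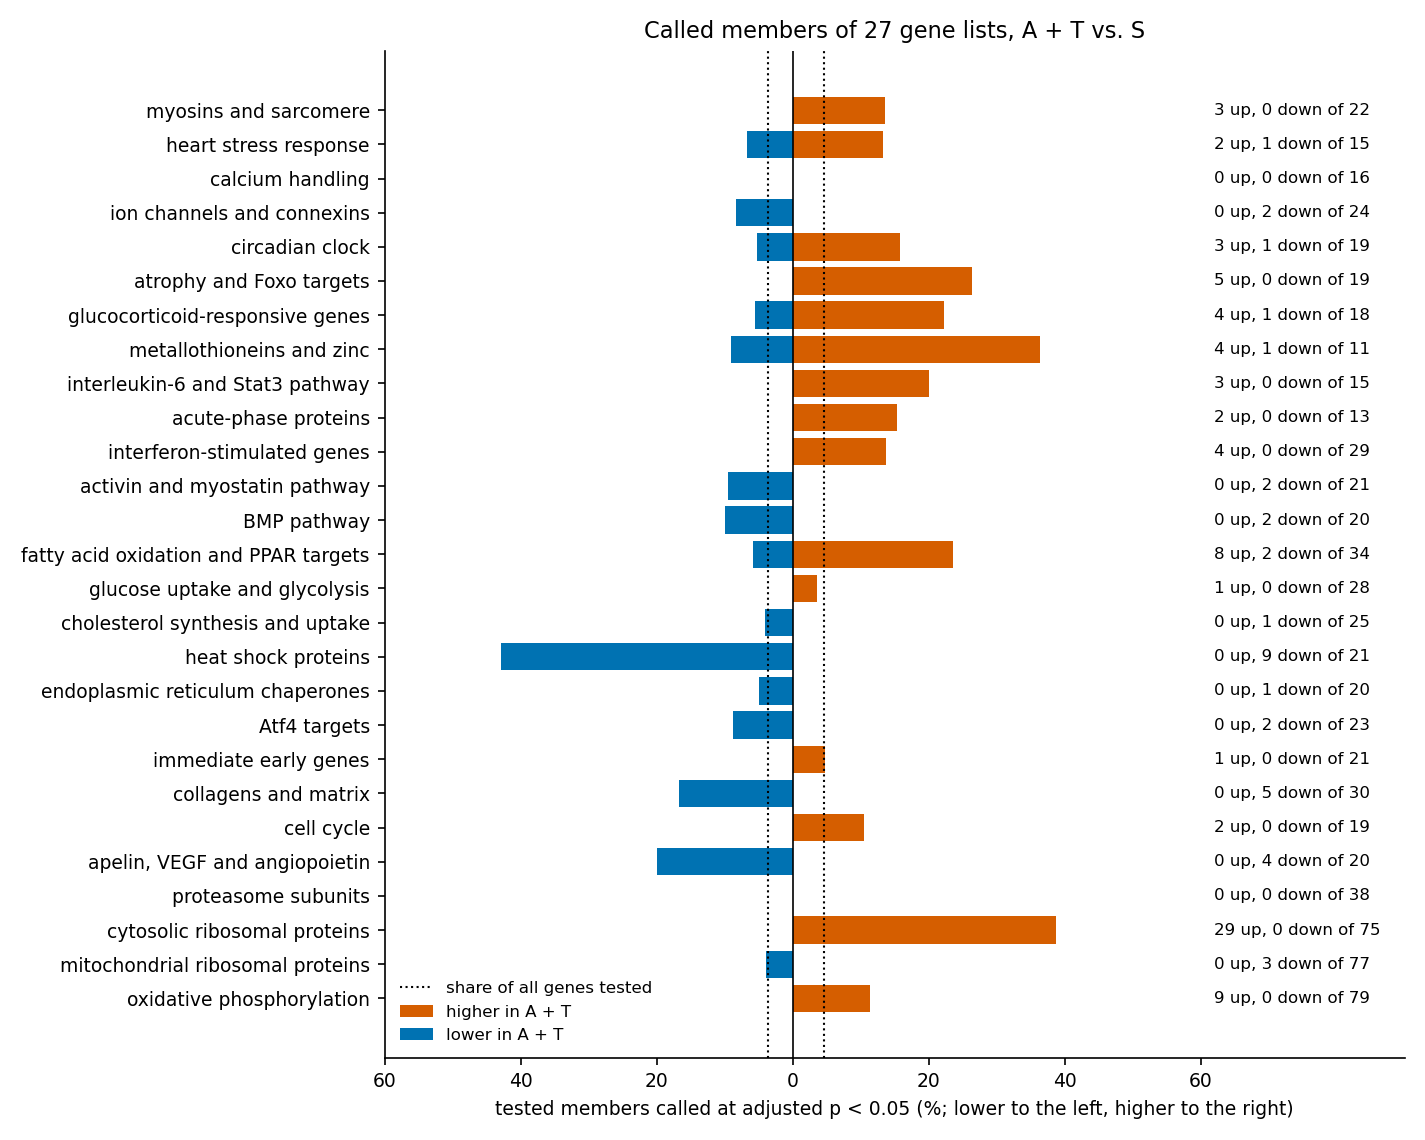
Share of tested members called higher (right) or lower (left) in A + T vs. S at an adjusted p under 0.05 in 27 gene lists, with the numbers at the right. Dotted lines mark the 4.67% and 3.64% of all genes called higher and lower. Heat shock proteins reach furthest to the left, with 9 of 21, and cytosolic ribosomal proteins furthest to the right, with 29 of 75.

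Of 75 tested genes of the cytosolic ribosome, 29 rose and none fell (38.7%, against 4.67% of all genes called higher), 74 had a positive sign, and the median log2 fold change was 0.49. Rps28 measured 25.9, 27.8 and 26.2 CPM in S, 43.9, 32.3 and 79.2 in T and 69.9, 62 and 85.8 in A + T (1.45, SE 0.27, adjusted p = 0.0118), and Rps29 76.5, 80.7 and 68.6 against 157, 152 and 209 (1.20, adjusted p = 0.015). Rpl28 (0.66) and Rpl29 (1.0) were next by p-value. LN5.22 was the highest library for all 4. Without it 16 rose and the median was 0.31. The number called was 0 without LN5.2, 0 without LN5.3 and 1 without LN5.5, while the median stayed at 0.50, 0.51 and 0.46. The count was also 16 without LN5.11 of T. In T, 7 of the 75 were called higher and the median was 0.35, and none was called in A + T vs. T. Short transcripts moved in the same direction. Leaving out these genes, 139 genes under 700 bases had a median log2 fold change of 0.30, 660 genes of 700 to 1200 bases 0.11 and 3134 genes over 5000 bases −0.05. The ribosomal genes have a median length of 1106 bases, against 3455 over all genes tested. After each library was corrected for trends with GC content and length, 32 of the 75 were called and the median was 0.37. Among 79 genes of oxidative phosphorylation, 9 rose, such as Cox7c (1.09, adjusted p = 0.0145) and Ndufa1 (0.71, adjusted p = 0.015), but none was called when any S animal was left out. The count was 2 without LN5.22, 3 without LN5.21, 5 without LN5.20, 4 without LN5.11 and 21 without LN5.12. Under the same correction 9 were called and their median went from 0.15 to 0.03. The mitochondrial ribosome had a median of −0.02 and 3 of 77 called lower (1 without LN5.22), and none of 38 proteasome genes was called.

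Of 20 genes of the apelin, VEGF and angiopoietin systems, 4 fell (20%, against 3.64% of all genes called lower). The peptide Apln measured 5.58, 8.78 and 8.46 CPM in S, 1.05, 0.951 and 0.842 in T and 3.15, 3.73 and 4.68 in A + T. A + T lay between the other groups, below S (−0.98, adjusted p = 0.0249) and above T (2.00, adjusted p = 0.00432). Its receptor Aplnr had the same order, with log2 fold changes of −1.06 from S (adjusted p = 0.014) and 1.48 from T (adjusted p = 0.00736). The transcription factor Sox7 (−0.87) and the lymphatic receptor Flt4 (−0.60) were the others. Sox7 lost its call without LN5.2, Aplnr without LN5.2 or LN5.3, and Apln and Flt4 were called in 5 of the 9 fits. The list had 1 call without LN5.2 or LN5.3, 2 without LN5.20 or LN5.21 and 6 without LN5.22. Of 30 collagen and matrix genes, 5 fell (16.7%, against 3.64% of all genes) and 4 without LN5.22. In the libraries labelled T, where 21.2% of all genes were called, 22 fell. Eln, elastin, went from 75.1, 53.4 and 79.4 CPM in S to 31.2, 31.2 and 37.6 in A + T (−1.05, SE 0.15, adjusted p = 0.0041), and its call held throughout. The basement membrane collagens Col4a1 (−0.74) and Col4a2 (−0.61), Col6a2 (−0.87) and the cross-linking enzyme Loxl1 (−0.56) also fell, with calls kept in 7, 5, 2 and 7 of the 9 fits. Col1a1 differed between the A + T hearts. It measured 165, 75.5 and 44.5 CPM there against 121, 99.8 and 134 in S (adjusted p = 0.616), and without LN5.20 16 of the 30 were called. Without LN5.2 1 was called, 2 without LN5.3 or LN5.5 and 3 without LN5.11. Smooth muscle markers summed to between 273 and 288 CPM in S and 169 to 202 in A + T, fibroblast markers to between 3185 and 3668 against 2407 to 2978, and endothelial markers to between 1005 and 1111 against 754 to 975, none overlapping (exact permutation test, p = 0.1 each). The same smallest p was reached by adipocyte markers, which were higher in A + T (log2 difference 0.34). Markers of cartilage, skeletal muscle and thymus, lower in A + T (−0.22), reached it too. The atrial markers were lower in the A + T libraries, and their part was not tested.

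In the pathway that ACVR2B/Fc acts on, 2 of 21 genes were called (9.52%, near the 8.31% of all genes), and 3 without LN5.22. Among the ligand genes, those named here were not called. Inhba and Inhbb, which encode the chains of activins A and B, had log2 fold changes of −0.29 and 0.29 (adjusted p = 0.613 and 0.485). Mstn, myostatin, was low throughout, at 0.608, 1.02 and 2.39 CPM in S and 1.11, 1.29 and 0.863 in A + T, and Gdf11 was at −1.72 with an adjusted p of 0.165. Acvr2b, the receptor itself, was at 1.6, 1.98 and 1.45 CPM in S and 2.1, 3.3 and 3.08 in A + T (0.74, adjusted p = 0.105). Both called genes fell. Acvr1, a type I receptor that also serves BMPs, measured 22.3, 23.3 and 21.6 CPM in S, 11.7, 12.3 and 15.5 in T and 15.6, 15.7 and 17.4 in A + T (−0.47, adjusted p = 0.0324), and the pseudoreceptor Bambi fell from 22.7, 25.8 and 22.2 to 15.3, 13.6 and 17.9 (−0.59, adjusted p = 0.0388). Both calls were lost without each S animal, LN5.20 or LN5.21, and none of the list was called when libraries were scaled by their totals alone. The inhibitors Fst (0.03) and Fstl3 (−0.69) did not pass the test. In the BMP pathway, 2 of 20 fell (10%): Bmp6 (−0.62, adjusted p = 0.0479), called in 1 of the 9 fits without an animal, and the antagonist Chrd (−0.87, adjusted p = 0.039), called in 3. Without LN5.22 the count was also 2, but Chrd was not among them. The target genes Id1, Id2 and Id3 had log2 fold changes of 0.06, −0.10 and 0.19 and did not pass the test.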

How the data were processed

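RNA of whole hearts was sequenced from 9 NSG mice, 3 each labelled S, T and A + T, as 75-base paired reads. Per the labels and the study's methods, the authors aligned reads with STAR to mm10 and counted them per gene by strand with featureCounts (mapping quality of at least 10), versions not given in the sources used here. The deposited gene counts were used as they stand, and the authors' normalised log2 table was not used. A total of 13890 genes were listed, and 3443 blank rows held no values. The filter took out 526 genes that were under 0.5 CPM in over 4 libraries, which left 13364. One model over all 9 libraries was fitted with edgeR 4.0.16 in R 4.3.3 (TMM scaling, quasi-likelihood test, Benjamini-Hochberg adjustment over all genes tested). Values in CPM are scaled by TMM. Marker lists were summed per library and compared by two-sided exact permutation tests on log2(CPM + 0.1) with SciPy 1.17.1. With 12392222 to 19732471 counts per library, 3 counts equal 0.152 to 0.242 CPM. Ratios of pooled counts have exact intervals that cover counting error only.

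Named genes were the 12 largest rises and falls (adjusted p under 0.05, a mean of at least 10 counts, groups not overlapping), the 6 largest in each direction among shared and among new genes, up to 4 members of each list by p with its defining members, and the 6 called genes with the largest share of counts in LN5.22. The 5 genes of opposite sign, and list members outside this rule, were named after their values were seen. The members and lists were chosen with earlier results of these data known. The alternatives were DESeq2 1.42.0, limma-voom (limma 3.58.1), other scalings and filters, fits of the compared groups only, Rn45s left out and each animal left out. A correction of each library for GC content and length, known for 99.4% of the genes tested, was added after seeing the data. Coordinates and promoters are those of RefSeq on GRCm38.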

Additional observations from a re-analysis of the deposited data

How the results depend on the processing

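Of 167 named genes called, 36 kept the call in all 9 fits without an animal, and none of the 167 reversed without any of the animals, with DESeq2 or with library size only. DESeq2, which gave no adjusted p for 1 of them, ended 1 of the calls (Clec10a) and scaling by library size only ended 47. Leaving out 1 animal gave 1022 to 1360 genes at the study's thresholds, 269 to 1086 after adjustment, 187 to 679 shared with T and 16 to 93 new. The lowest counts came without LN5.2 (269 and 187, with 35 new), LN5.3 (300 and 217, with 32 new) and LN5.5 (533 and 365, with 55 new). Without LN5.21 the counts were 693 and 444, the new genes were 47 without LN5.20, and they were 16 without LN5.11 of T. With library size only, 555 genes were called, 322 of them shared and 58 new, and 373 without LN5.22. In fits of the groups compared only, 31 genes were new, and 1455 were called without LN5.22. The cause was not tested. The other alternatives kept these counts within 1.5 times. With each animal left out, library size only, DESeq2 and the GC and length correction, the members called in a list moved by more than 1.5 times in 181 of 504 cases and the median by more than its spread in 18 of 504. Marker sums kept their direction with a pseudocount of 1 CPM in 15 of 15 lists. No paired analysis was possible because the labels give no replicate numbers shared between groups. Genes near 3 counts per library are limited by depth.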

Other observations

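Further lists had shares of called genes between 4% and 10.5%, against 8.31% of all genes. Of 24 ion channel and connexin genes 2 fell (8.33%), the potassium channel subunits Kcne1 (log2 fold change −0.92) and Kcnj12 (−0.39), which kept their call in 3 and 4 of the 9 fits without an animal, and the list had 1 call without LN5.22. Among 23 targets of Atf4, a factor of the amino acid stress response, Aldh18a1 (−0.68), which makes a precursor of proline, and the cytokine Gdf15 (−1.28) fell (8.7%), kept in 6 and 2 of those fits, with 1 call without LN5.22. Gdf15 was at 2.21, 1.42 and 1.59 CPM in S and 0.618, 0.861 and 0.678 in A + T. Of 19 cell cycle genes, Mki67 (0.93) and the replication helicase subunit Mcm4 (0.48) rose (10.5%), kept in 5 and 3 of the fits, with 1 call without LN5.22, and Top2a was at 0.17 (adjusted p = 0.805 by edgeR). Mki67 was at 3.04, 3.4 and 4.99 CPM in S, 4.34, 3.33 and 3.65 in T and 6.99, 8.76 and 5.85 in A + T, where every library was above S and T. Of 25 cholesterol genes 1 fell, Hmgcs1 (−0.40), and it kept its call in 1 of the 9 fits. Of 3 erythroid markers none was called, and their summed level was 76.2 CPM in LN5.20 against 313 and 369 in LN5.21 and LN5.22.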
